A study of Mus musculus with 6 samples.

Results

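Alpha granules are the most numerous storage granules of blood platelets. They carry adhesive proteins, clotting factors and protease inhibitors that are released or moved to the cell surface when a platelet is activated. The mRNAs of 10 genes of this cargo were described here in mouse platelets, chosen by symbol: Thbs1, Vwf, Mmrn1, F5, F13a1, Serpine2, Selp, Clu and Sparc, together with Nbeal2, whose protein is needed to form the granules. All 10 symbols were found among the 24346 symbols of the deposited tables. The list is named for the granule as a whole, but the product of F13a1 is known to lie largely in the platelet cytoplasm.

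Platelet (thrombocyte) RNA from blood was compared between 3 libraries labelled wild type and 3 labelled as homozygous knock-in of Beta3(R734C), a missense change in integrin β3. The series' design text states that the comparison was made to learn more about this change. Integrin β3 with its partner αIIb forms the fibrinogen receptor of platelets. The age, sex and strain of the mice, and whether replicates came from separate or pooled animals, is not given in the sources used here, so a p-value covers the spread among these libraries only, and that spread may be technical. Levels are FPKM, fragments scaled to transcript length and to the size of the library, so that genes of unlike length can be compared. How library size was set is not given in the sources used here. Over symbols above 0 in all 6 libraries, the median ratio to the geometric mean of the libraries was 1.01 to 1.02 in each. Libraries were compared on the values as deposited. Libraries are numbered 1 to 3 within the wild type and within the knock-in, as in their titles.

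By an indirect estimate the libraries were of similar depth. Between 8383 and 9006 symbols were above 0 per library. Relative depth, read from the commonest ratio of low values to those of wild-type library 1, was 0.882 for knock-in library 1 and 1.0 to 1.05 for the others. Outside wild-type library 1, that ratio was held by 147 to 205 of the 2074 to 2426 genes compared per library. The estimate follows the library size used to scale FPKM and need not equal sequencing depth. FPKM over all symbols summed to 641278 to 708432 in wild-type libraries and 758380.5 to 856863 in the knock-in. The absolute depth is unknown. All 9 platelet markers reached at least 10 FPKM, and their summed level was 51599 to 53786 FPKM in wild-type libraries and 48032 to 53388 in the knock-in. The sum hides opposite shifts of single markers. Tubb1 measured 6601, 6974 and 6147 FPKM in wild-type libraries and 3900, 3558 and 3673 FPKM in the knock-in. Ppbp and Gp6 were also lower in every knock-in library, Pf4 and Gp9 were higher, and the other markers overlapped. Of all tested genes, 30.7% had no overlap, in either direction. Erythroid markers, 6 of 9 found in the tables, summed to 24649 to 60933 FPKM in wild-type libraries and 16977 to 115572 in the knock-in, with wild-type library 1 and knock-in library 1 the highest of their groups. Several of the 10 genes are also made by endothelial cells, monocytes, fibroblasts or hepatocytes. None of 8 endothelial, 6 fibroblast and 6 hepatocyte markers reached 10 FPKM in any library, and the summed ranges (wild type, then knock-in) were 8.03 to 10.5 and 10.2 to 12.4 FPKM for endothelial, 0.784 to 1.1 and 0.716 to 1.99 FPKM for fibroblast, and 0 to 7.34 and 2.57 to 17.3 FPKM for hepatocyte markers. The endothelial marker Robo4 and the fibroblast markers Lum and Pdgfra were listed at 0 in all 6 libraries. Of 8 monocyte and macrophage markers, Lyz2 alone reached 10 FPKM, and it was as abundant as Clu, at 7033 to 8239.6 FPKM (wild type) and 7205 to 9127 FPKM (knock-in). The other 7 summed to 0.859 to 1.10 FPKM in wild-type libraries and 0.482 to 0.635 in the knock-in. Neutrophil markers summed to at most 2.19 FPKM in any library, with overlapping groups. T and NK cell markers summed to 2.67 to 4.42 FPKM (wild type) and 4.92 to 8.83 FPKM (knock-in), and B cell markers to 0 to 0.185 and 0.196 to 0.693 FPKM, with Cd3d, Cd3e, Klrd1, Ms4a1 and Pax5 at 0 in all 6. Neither of these sums overlapped between the groups. Nkg7 alone made up nearly all of the T and NK sum, at 4.42, 3.87 and 2.67 FPKM in wild-type libraries and 6.37, 8.83 and 4.68 FPKM in the knock-in. The part of these low levels in the results below was not tested.

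The genes fall at different places in the genome, but Selp and F5 are direct neighbours. Selp lies on chromosome 1 at 164115264 to 164150026 of GRCm38 and F5 at 164151838 to 164220277, both on the plus strand, with the start of F5 1812 bases past the end of Selp. Their promoter windows are shown because these neighbours differed in what was measured below, and that of Mmrn1 because it alone among the 7 genes with a window held a GATA match. The Mmrn1 window lies inside the gene as GENCODE draws it, from 60924976 to 60989378 on chromosome 6. The windows run from 250 bases before to 50 after the start of the RefSeq transcript in GRCm38.p6, 5′ to 3′ on the strand of the gene. Capitals mark matches, on either strand, to the core letters bound by the GATA factors (AGATAA or TGATAA), by the ETS factors (GGAAG) and by NF-E2 (TGCTGA), families that act in megakaryocytes, the parent cells of platelets.

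Selp, chr1:164115014-164115313, plus strand: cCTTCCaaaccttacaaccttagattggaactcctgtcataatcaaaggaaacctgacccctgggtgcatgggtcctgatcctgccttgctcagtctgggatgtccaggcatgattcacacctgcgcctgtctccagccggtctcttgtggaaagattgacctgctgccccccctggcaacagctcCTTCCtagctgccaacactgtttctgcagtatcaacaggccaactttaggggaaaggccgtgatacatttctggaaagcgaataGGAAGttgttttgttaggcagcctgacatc
F5, chr1:164151585-164151884, plus strand: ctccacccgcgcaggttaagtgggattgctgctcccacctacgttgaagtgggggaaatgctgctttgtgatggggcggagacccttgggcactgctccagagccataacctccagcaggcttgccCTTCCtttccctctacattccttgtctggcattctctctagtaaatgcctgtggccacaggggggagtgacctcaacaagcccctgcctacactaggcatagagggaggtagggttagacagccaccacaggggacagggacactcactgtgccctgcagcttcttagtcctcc
Mmrn1, chr6:60944067-60944366, plus strand: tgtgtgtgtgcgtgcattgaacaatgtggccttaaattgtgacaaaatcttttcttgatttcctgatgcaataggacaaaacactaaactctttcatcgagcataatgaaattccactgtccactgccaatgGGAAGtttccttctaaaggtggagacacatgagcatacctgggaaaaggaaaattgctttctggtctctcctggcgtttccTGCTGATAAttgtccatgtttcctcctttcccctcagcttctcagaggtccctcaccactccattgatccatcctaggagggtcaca

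The Selp window held 3 ETS matches, starting 249 and 64 bases before and 20 bases after the transcript start, and the F5 window held 1, at 124 bases before it. Neither held a GATA or NF-E2 match. In the Mmrn1 window the NF-E2 match, 37 bases before the start, and the GATA match, 34 bases before it, overlap, and 1 ETS match lies 118 bases before the start. Of 32851 windows of the same length in the reference, 71.4% held an ETS match, 18.6% a GATA match and 19.5% an NF-E2 match. The windows of Serpine2, Nbeal2 and the pair of windows of F13a1 held 2 or 3 ETS matches each, and that of Sparc held an NF-E2 match alone. These are matches of letters and not measured binding sites.

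Thbs1 and Selp mRNA were lower in knock-in platelets, while the other tested members did not pass the test. A filter asked for a mean of at least 1 FPKM over the 6 libraries, which 8 of the 10 genes and 4859 of all symbols passed. Each was tested with limma on log2(FPKM + 1), and a gene was called at a Benjamini-Hochberg adjusted p under 0.05 over all 4859 genes. Of the 8 genes, 2 were called lower, where 3.99% of all tested genes were, and 0 were called higher, where 4.36% were. An unadjusted p under 0.05 in limma was found for 3 of the 8, Clu being the third, and for 25.4% of all tested genes. By the 2-fold limit of the series' design text, applied to group means of FPKM + 1, 1 of the 8 genes (Thbs1) differed, against 3.11% of all tested genes. Thbs1 and Selp were also the 2 genes of the 8 whose values did not overlap between the groups, against 30.7% of all tested genes. The median log2 fold change of the 8 genes was -0.20, beside -0.01 over all tested genes, and 6 of the 8 lay below 0.

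**Figure D1:**
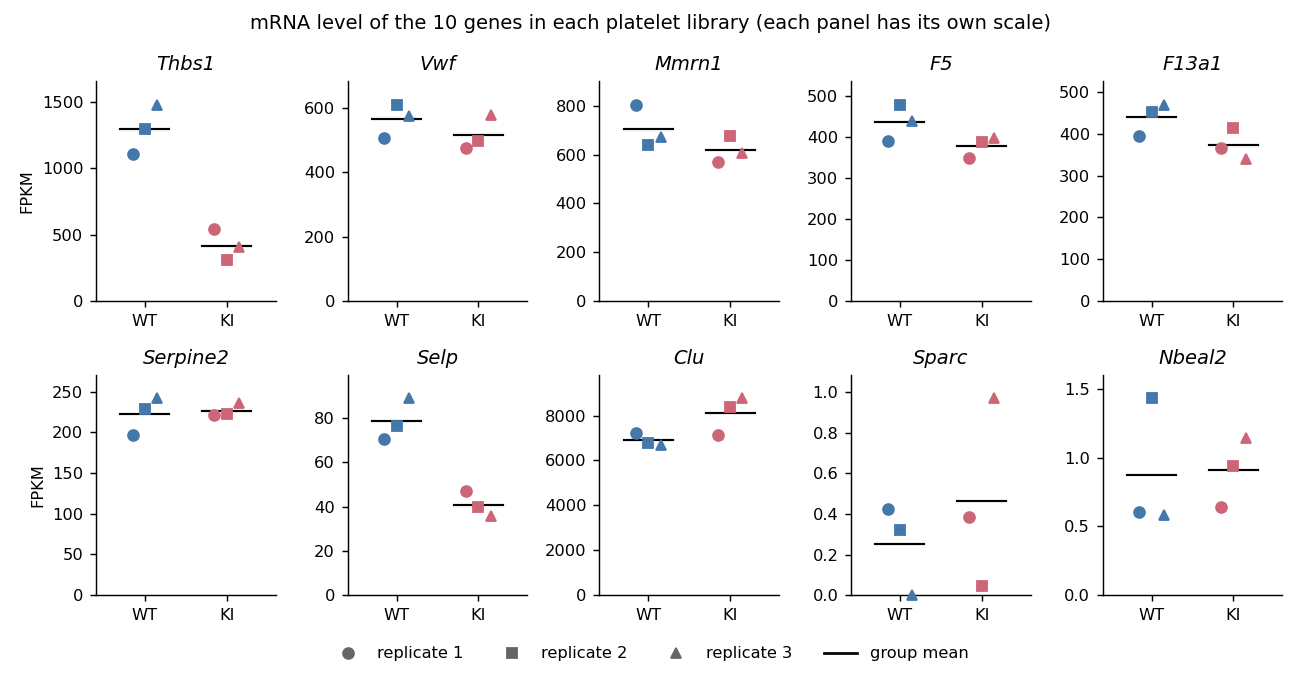
FPKM (vertical axis, from 0, with its own scale per gene) of the 10 genes in 3 wild-type (WT, blue) and 3 knock-in (KI, red) libraries; symbols give the replicate number and bars the group mean. The groups are apart for Thbs1 and Selp and overlap for the other 8 genes, of which Sparc and Nbeal2 stayed under 1.5 FPKM in every library.

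Thbs1 encodes thrombospondin-1, a large adhesive protein that alpha granules release and that binds fibrinogen and the receptors CD36 and CD47. Its mRNA measured 1106, 1298 and 1478 FPKM in wild-type libraries 1, 2 and 3 and 541, 310 and 406 FPKM in knock-in libraries 1, 2 and 3. Every knock-in value lay under the lowest wild-type value. The group means were 1294 ± 186 FPKM in wild-type libraries and 419 ± 116 FPKM in the knock-in (SD, n = 3 each), 3.09-fold apart. On the log2(FPKM + 1) scale the difference was -1.65 (SE 0.19, 95% interval -2.10 to -1.21, limma adjusted p = 0.00759). Ranked among all symbols of a library, Thbs1 was number 66 to 89 in wild-type libraries and number 171 to 268 in the knock-in.

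The Thbs1 difference was as large or larger without the libraries richest in erythroid mRNA. Leaving out wild-type library 1 and knock-in library 1 together gave -1.96 (limma adjusted p = 0.000539). Without knock-in library 3 the estimate was -1.65 and the call was lost (limma adjusted p = 0.0554), as it was in limma without a variance trend (0.0623). In both settings 0 of the 4859 genes passed, with 1002 and 1197 genes at an unadjusted limma p under 0.05. Over 208 bases its exons overlap those of Gm29233, a long noncoding RNA gene of the other strand, and the library kits do not mark strand. Because each library holds pooled RNA of many platelets, fewer platelets that hold an mRNA and less of it per platelet cannot be told apart. Because mRNA is measured relative to the whole library, a fall of Thbs1 and a rise of the other RNA cannot be told apart either.

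Vwf encodes von Willebrand factor, which bridges collagen of the damaged vessel wall to the platelet receptor GPIb. It measured 508, 610 and 574 FPKM in wild-type libraries and 475, 497 and 578 FPKM in the knock-in. The groups overlapped, and knock-in library 3 stood among the wild-type values. The difference of -0.13 (SE 0.11) did not pass the test (limma adjusted p = 0.530), and its 95% interval ran from -0.38 to 0.12. Mmrn1 encodes multimerin-1, a large multimeric protein that holds factor V in the granule. It measured 804, 641 and 673 FPKM in wild-type libraries and 568, 677 and 605 FPKM in the knock-in, with knock-in library 2 above 2 of the wild-type libraries. Its difference was -0.19 (SE 0.11, 95% interval -0.45 to 0.07, limma adjusted p = 0.341).

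Sparc encodes osteonectin, a collagen-binding glycoprotein. It was hardly detected, at 0.427 and 0.324 FPKM in wild-type libraries 1 and 2 and listed at 0 in library 3, and at 0.387, 0.0426 and 0.970 FPKM in the knock-in. It did not pass the filter, and with no filter its difference was 0.20 (SE 0.27, limma adjusted p = 0.767).

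Among the clotting proteins no change passed the test. F5 encodes factor V, the cofactor with which factor Xa turns prothrombin into thrombin. It measured 390, 478 and 437 FPKM in wild-type libraries and 347, 387 and 397 FPKM in the knock-in. Knock-in library 3 lay above wild-type library 1, and the difference was -0.20 (SE 0.11, 95% interval -0.44 to 0.04, limma adjusted p = 0.273). F13a1 encodes the catalytic A subunit of factor XIII, the transglutaminase that crosslinks fibrin. It measured 395, 452 and 469 FPKM in wild-type libraries and 366, 413 and 339 FPKM in the knock-in, so that knock-in library 2 lay within the wild-type range. Its difference was -0.24 (SE 0.11, 95% interval -0.49 to 0.01, limma adjusted p = 0.224). Both intervals end well short of the Thbs1 estimate of -1.65. Exons of F5 overlap those of the noncoding gene Gm16548 and exons of F13a1 those of Gm30489, each on the other strand.

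Serpine2 encodes protease nexin-1, an inhibitor of thrombin. Its values of 197, 229 and 242 FPKM in the wild type enclosed the 221, 223 and 236 FPKM of the knock-in. The difference was 0.03 (SE 0.10, 95% interval -0.21 to 0.27, limma adjusted p = 0.890).

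Selp encodes P-selectin, a membrane protein of the granule that moves to the surface of activated platelets and binds its ligand on leukocytes. It measured 70.4, 76.6 and 88.9 FPKM in wild-type libraries and 47.0, 39.9 and 35.7 FPKM in the knock-in. All 3 knock-in libraries lay below all 3 wild-type libraries. The means of 78.7 ± 9.42 and 40.9 ± 5.72 FPKM (SD, n = 3 each) were 1.92-fold apart, just short of the 2-fold limit, and the difference on the log2 scale was -0.93 (SE 0.14, 95% interval -1.26 to -0.60, limma adjusted p = 0.0105). It was -1.11 without wild-type library 1 and knock-in library 1 (limma adjusted p = 0.00335). The call was lost, with estimates between -0.95 and -0.84, without wild-type library 2 (limma adjusted p = 0.0564), wild-type library 3 (0.0529), knock-in library 2 (0.0549) or knock-in library 3 (0.0631), and without a variance trend (0.0623). Exons of Selp overlap those of Gm16587 and Gm16548 on the other strand.

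Clu encodes clusterin, a secreted chaperone, and was by far the most abundant of the 10 mRNAs. It measured 7210, 6773 and 6694 FPKM in wild-type libraries and 7153, 8390 and 8762 FPKM in the knock-in. Knock-in library 1 lay among the wild-type libraries and the other 2 above them. The difference of 0.23 (SE 0.10, 95% interval 0.01 to 0.45) did not pass the test (limma adjusted p = 0.175). It passed as higher without knock-in library 1 (0.32, limma adjusted p = 0.0204) and without both erythroid-rich libraries (0.35, limma adjusted p = 0.00635), and was 0.06 after quantile normalization (limma adjusted p = 0.769). Knock-in library 1 is the one with the most erythroid mRNA and, by the indirect estimate above, the lowest relative depth. It had 8998 symbols above 0, more than knock-in libraries 2 (8773) and 3 (8383). The part of erythroid mRNA or depth in the Clu values was not tested.

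Nbeal2, which encodes a BEACH domain protein and is mutated in gray platelet syndrome, a human disorder in which alpha granules are missing, had a low level. It stood at 0.605, 1.43 and 0.580 FPKM in wild-type libraries and at 0.644, 0.941 and 1.15 FPKM in the knock-in. The groups overlapped, the mean of 0.892 FPKM missed the filter, and with no filter the difference was 0.05 (SE 0.30, 95% interval -0.66 to 0.76, limma adjusted p = 0.95). Its exons hold the microRNA gene Mir8107, an overlap of 22 bases.

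**Figure D2:**
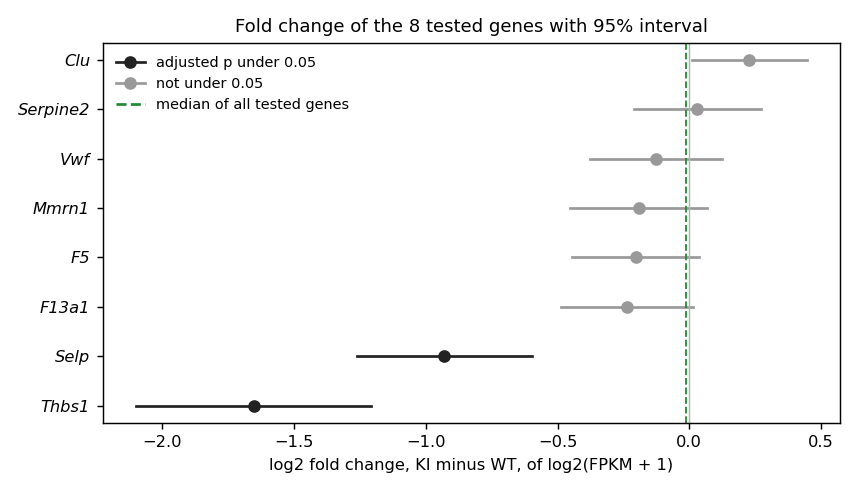
Log2 fold change (horizontal axis, knock-in minus wild type, of log2(FPKM + 1)) of the 8 tested genes, with points for the estimate and bars for the 95% interval from limma, black where the adjusted p is under 0.05. Thbs1 (-1.65) and Selp (-0.93) lie apart from the other 6, whose estimates run from -0.24 to 0.23; the dashed line is the median of all tested genes, -0.01.

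Among the 10 genes, 5 held the same place in the order of levels in every library. Clu was the highest in all 6 libraries, Serpine2 the seventh, Selp the eighth, Nbeal2 the ninth and Sparc the lowest. Thbs1 was number 2 in each wild-type library and number 3, 6 and 4 in knock-in libraries 1, 2 and 3, where Mmrn1 took its place. F5 and F13a1 differed by less than their spread, at 435 ± 43.9 and 439 ± 38.6 FPKM in wild-type libraries and 377 ± 26.5 and 373 ± 37.6 FPKM in the knock-in (SD, n = 3 each), and swapped order between libraries. The 10 mRNAs summed to 10559 to 10682 FPKM in wild-type libraries and 9719 to 11361 FPKM in the knock-in. Thbs1 made up 10.4% to 13.9% of that sum in wild-type libraries and 2.83% to 5.56% in the knock-in, while Clu made up 62.8% to 67.5% and 73.6% to 77.1%. Thbs1 is part of the sum, so a lower Thbs1 by itself raises the share of Clu. The FPKM values of Clu overlapped between the groups.

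Ratios of 2 mRNAs of the same library do not depend on how libraries are scaled. They were computed for Thbs1 over each of the other 7 tested genes and for Selp over each of the 6 besides Thbs1, after the values had been seen. The ratio of Thbs1 to Vwf was 2.18, 2.13 and 2.58 in wild-type libraries and 1.14, 0.623 and 0.702 in the knock-in. Wild-type platelets thus held more Thbs1 than Vwf mRNA in every library, and 2 of the 3 knock-in libraries held less. For the neighbours Selp and F5 the ratio was 0.180, 0.160 and 0.203 in wild-type libraries and 0.135, 0.103 and 0.0898 in the knock-in. Thbs1 also changed against Selp, from ratios of 15.7, 17.0 and 16.6 to 11.5, 7.75 and 11.4. All 13 ratios separated the groups. Thbs1 and Selp were taken as numerators because their own values did so, and the 13 ratios reuse these 2 genes. The outcome was thus largely set by that choice and is a description only. Values of single genes did not overlap between the groups for 30.7% of all tested genes, and the share among ratios of other genes was not computed. An exact permutation test of the group labels gave p = 0.1 for each ratio. That is the smallest p possible for 3 against 3, so the test cannot decide and no conclusion is drawn from it.

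**Figure D3:**
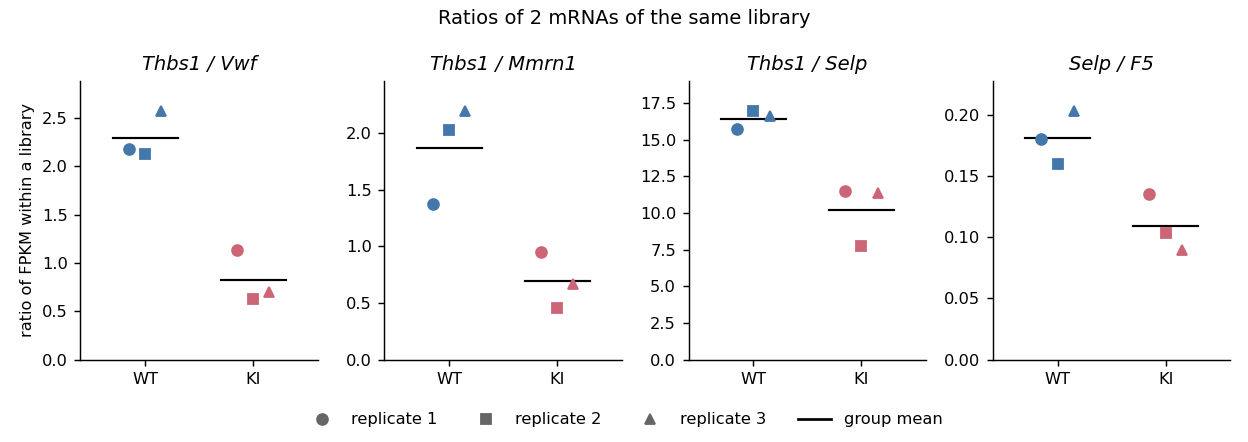
FPKM ratios within a library (vertical axes, from 0) of Thbs1 to Vwf, Mmrn1 and Selp and of Selp to F5, in 3 wild-type (WT) and 3 knock-in (KI) libraries; symbols give the replicate number and bars the group mean. In every panel the 3 knock-in values lie below the 3 wild-type values, but the numerators were chosen because their own values separated the groups.

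The 10 genes span a wide range of transcript lengths. Their longest annotated coding transcripts run from 1810 bases for Clu over 3438 for Selp and 5848 for Thbs1 to 8803 for Nbeal2 and 8834 for Vwf. With the trend on transcript length removed from each library, Thbs1 was at -1.55 (limma adjusted p = 0.00717) and Selp at -0.86 (0.0148). Under the same removal the estimates of Vwf, F5, Mmrn1 and F13a1 each came closer to 0, at -0.02, -0.10, -0.10 and -0.15. The shift was not alike at all lengths. Vwf, with the longest transcript, went from -0.13 to -0.02. Clu, with the shortest, went from 0.23 to 0.22, and Serpine2 from 0.03 to 0.05.

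Some genes beside them on the chromosome were also read. Sele, for E-selectin of endothelium, was listed at 0 in all 6 libraries. Fsip1, which lies 3291 bases past the end of Thbs1, was also listed at 0 in all 6. Cd9, described below, lies 51983 bases before Vwf.

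The rest of the alpha granule was read from lists of genes, whose counts stand beside 194 lower, 212 higher and 1234 (25.4%) with an unadjusted limma p under 0.05 among all 4859 tested genes. Of 33 further cargo genes (chemokines, growth factors, fibrinogen chains, inhibitors), 14 were tested, 0 were called in either direction by limma, and 7 had an unadjusted p under 0.05. Their median log2 fold change was -0.24, with 11 of 14 below 0. The most abundant was Pf4, the chemokine platelet factor 4, at 17469, 17761 and 19149 FPKM in wild-type libraries and 20296, 23309 and 23135 FPKM in the knock-in (limma adjusted p = 0.0774). Fibrinogen chain mRNAs Fga, Fgb and Fgg stayed under 2 FPKM in every library. Fibrinogen is known to be taken up by platelets from plasma.

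Of 18 genes for membrane proteins found in alpha granules, all tested, 7 were called lower and 2 higher, with 10 at an unadjusted p under 0.05 in limma and a median of -0.19. Slc2a3, for the glucose transporter GLUT3, measured 1111, 1163 and 1226 FPKM in wild-type libraries and 783, 695 and 786 FPKM in the knock-in (log2 fold change -0.63, limma adjusted p = 0.00849). Scamp2, a secretory carrier protein gene, measured 60.6, 54.0 and 62.3 FPKM against 35.3, 28.7 and 34.0 FPKM (-0.84). The genes of the adhesion molecule JAM-A, F11r, and of GPIbα, Gp1ba, fell by 0.83 and 0.65 on the log2 scale. Cd9, a tetraspanin gene and the most abundant of the list, was among the 2 that rose, from 15105 ± 1459 to 24902 ± 2873 FPKM (SD, n = 3 each). The other, outside the naming rule and chosen after its values were seen, was the lysosomal membrane gene Lamp1, at 649, 625 and 684 FPKM in wild-type libraries and 760, 923 and 902 FPKM in the knock-in (0.40, limma adjusted p = 0.0464).

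Partners that bind the 10 gene products gave 2 genes lower and 0 higher of 12 tested, with 6 at an unadjusted p under 0.05 in limma and a median of -0.20. Both of the lower genes are also counted among the 7 lower membrane protein genes above. They were Gp1ba, whose product is the von Willebrand factor-binding chain of GPIb, and Itgb3 itself (-0.49, limma adjusted p = 0.0190). The most abundant, Itga2b, was at -0.12 (limma adjusted p = 0.412). Itga2b, Gp9 and Cd36 are in the membrane protein list too, so the medians of these 2 lists are not independent. Of the thrombospondin-1 receptors, both chosen after their values were seen, Cd47 measured 620, 541 and 569 FPKM in wild-type libraries and 650, 777 and 744 FPKM in the knock-in (0.33, limma adjusted p = 0.0829). Cd36 measured 21.9, 9.78 and 8.09 FPKM against 60.4, 5.90 and 7.65 FPKM, highest in the library of each group that was richest in erythroid mRNA.

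Of 12 genes needed to form the granule or to make megakaryocytes, 9 were tested, and 1 was called lower and 1 higher, with a median of -0.20. Gata1, the megakaryocyte and erythroid transcription factor gene, measured 93.5, 93.8 and 91.8 FPKM in wild-type libraries and 61.4, 62.8 and 53.8 FPKM in the knock-in (-0.64, limma adjusted p = 0.0127). Rab11a, for a small GTPase of recycling endosomes, measured 240, 196 and 204 FPKM against 284, 319 and 364 FPKM (0.59, limma adjusted p = 0.0256). Nfe2, the most abundant of the list and the gene of the transcription factor NF-E2 subunit p45, was at -0.17 (limma adjusted p = 0.290). Among 23 relatives of the 10 genes, 5 were tested, and Thbs3, Thbs4, Comp, F13b and Sele were listed at 0 in all 6 libraries. Thbs2 was at most 0.586 FPKM in any library. Serpini1, for neuroserpin and the most abundant of the 5, was called lower at 4.65, 7.60 and 12.5 FPKM in wild-type libraries and 2.41, 1.66 and 2.79 FPKM in the knock-in. Tgm2, a transglutaminase gene of the family of F13a1, was called higher, at 1.27, 1.56 and 1.0 FPKM against 4.58, 3.26 and 5.07 FPKM (1.21, limma adjusted p = 0.0235).

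**Figure D4:**
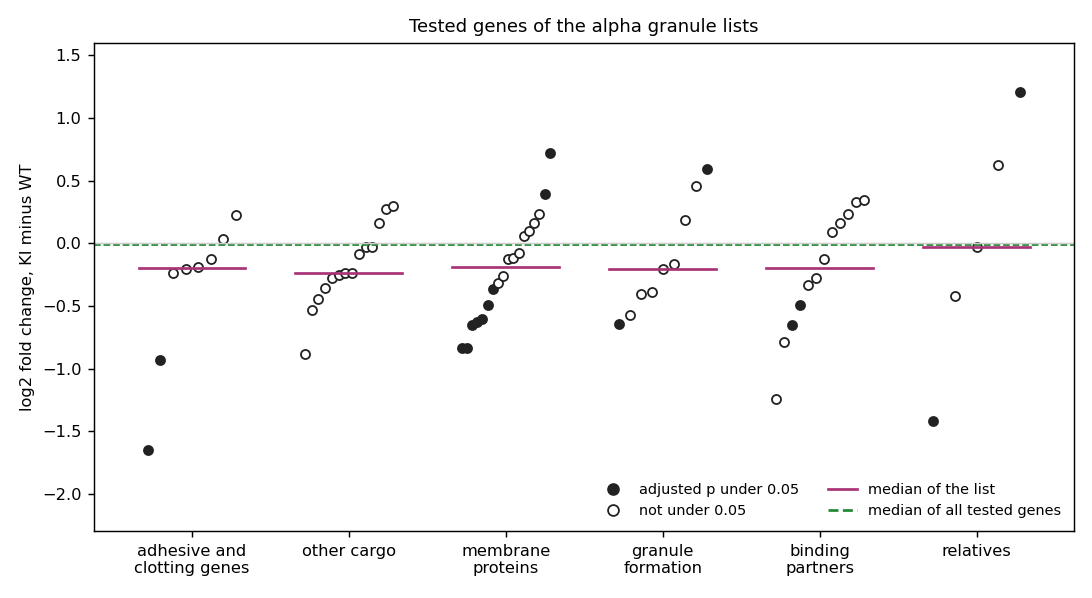
Log2 fold change (vertical axis, knock-in minus wild type) of the tested genes of each list, with a circle per gene, filled where the adjusted p is under 0.05, a solid bar for the median of the list and a dashed line for the median of all tested genes (-0.01). Thbs1 is the lowest point of the plot at -1.65, and the medians of the first 5 lists lie between -0.24 and -0.19. The lists of membrane proteins and of binding partners share genes.

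The genes whose levels followed Thbs1 and Selp most closely over the 6 libraries were sought among 2015 tested genes with a mean of at least 10 FPKM. For Thbs1 they were Hpcal1, Ndufv2 and Ube2d2a, with Pearson correlations of log2(FPKM + 1) of 0.997, 0.994 and 0.993. For Selp they were Rsu1, Tsc22d4 and Mapre1, with 0.999, 0.994 and 0.993. All points share the 2 groups and their libraries, and 76 genes for Thbs1 and 70 for Selp had a correlation above 0.95, so these values describe a likeness in 6 samples and no more. Rsu1, a partner of the integrin-linked kinase complex, measured 735, 809 and 961 FPKM in wild-type libraries and 429, 360 and 327 FPKM in the knock-in, in the same order of libraries as Selp.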

How the data were processed

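The authors deposited 1 table of FPKM values per library, keyed by gene symbol. The submitters' processing notes name TopHat2 (2.1.1), Cuffdiff (2.2.1), Bowtie2 (2.2.8) and SAMtools (0.1.18), and build mm10, while settings and annotation are not given in the sources used here. Per the labels' protocols, libraries were made with SMART-Seq HT and Nextera XT kits, which do not mark strand.

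The tables were used without further scaling. Genotypes were compared on log2(FPKM + 1) by limma (version 3.58.1, R version 4.3.3) with a variance trend and group as the only term. A mean of at least 1 FPKM was required, which 4859 genes had, and the script was tested on simulated data. Coordinates, exon overlaps and lengths came from GENCODE M21 (GRCm38), with a length for 4694 of the tested genes. Promoter windows came from RefSeq (GRCm38.p6), which matched 7 of the 10 genes. Replicates of a group shared 0 identical values above 0.

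The 10 genes, the other lists and the tests were chosen with earlier results of these data known. Of the other lists, genes past the threshold (at most the 5 with the smallest adjusted p) and the most abundant gene were named. For each of the 10 genes past the threshold, the 3 genes with the highest correlation were named.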

Additional observations from a re-analysis of the deposited data

How the results depend on the processing

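Thbs1 and Selp kept their direction under all 19 alternatives, with log2 fold changes of -1.96 to -1.45 and of -1.11 to -0.84. The 2 lower calls became 0 in limma without a variance trend (1197 genes at an unadjusted p under 0.05), and ranged from 0 to 2 as each library was left out in turn. Lower calls over all 4859 genes fell alongside, from 194 to 0 (knock-in 3 left out), 15 (wild-type 2), 43 (knock-in 2) and 44 (wild-type 3). The count of higher calls, 0 as reported, was 1 (Clu) without the library of each group richest in haemoglobin mRNA and 0 to 1 as each library was left out. The count at least 2-fold apart was 2 (with Selp) without those libraries and 1 to 2 as each library was left out, wild-type library 1 and knock-in library 1 giving the 2. The cause was not tested. Vwf, F5, F13a1 and Mmrn1 stayed below 0 and uncalled under all 19 alternatives, and Serpine2 was uncalled and between -0.05 and 0.09.

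Replicate numbers shared by the groups do not by themselves show whether samples are paired. Deviations from the group means of same-numbered libraries correlated at 0.158, 0.0235 and 0.141. Those of differently numbered libraries correlated at -0.160 to 0.0674. Whether this reflects a pairing was not tested. With a replicate block the lower calls were again 2, with limma adjusted p values of 0.0145 for Thbs1 and 0.0223 for Selp, while calls over all genes went from 194 lower and 212 higher to 140 and 166. Over the alternatives, calls ranged from 0 to 1 lower and 0 to 1 higher for the further cargo, from 0 to 7 and 0 to 2 for membrane proteins, from 0 to 4 and 0 to 1 for binding partners, from 0 to 2 and 0 to 1 for granule formation, and from 0 to 1 and 0 to 1 for relatives. The absolute depth is unknown, and what it allows for Sparc and Nbeal2 was not tested.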
